A study of Homo sapiens with 6 samples.

Results

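Adenylate kinases pass a phosphate between adenine nucleotides, most often turning ATP and AMP into ADP and back. They let a cell draw the energy of both high-energy phosphates of ATP, and the AMP they make is read by AMP-activated protein kinase, the cell's sensor of low energy. The family is spread over compartments: AK1 and AK5 work in the cytosol, AK3 and AK4 in the mitochondrial matrix, and AK7 and AK8 are known from motile cilia and flagella. CMPK1 is a related cytosolic kinase that acts on UMP and CMP. These 7 genes, of 23686 in the files, are described here. AK5 was selected on its measured increase in the comparison below, as 1 of the 5 largest, and the other 6 were taken as its relatives.

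The genes were measured by RNA-seq in 6 libraries of HEK293, an established human line from embryonic kidney. All sampled cells were GFP+ and had been collected by fluorescence-activated sorting. In the co-culture group, 3 libraries came from cells grown for 10 h beside HEK293 cells carrying DAAO, an abbreviation commonly used for D-amino acid oxidase, which releases hydrogen peroxide as it oxidises D-amino acids. These partner cells were labelled as producing reactive oxygen species (ROS), with D-alanine at 25 µM. The other 3 libraries, the controls, are labelled Wt and were sorted too, but all 6 samples carry the same treatment text, so whether the controls received D-alanine or partner cells is not given. The labels do not say whether libraries of a group came from separate cultures, so p-values measure the spread between these libraries, which may be technical. In such bulk samples a lower level in every cell and fewer cells with the transcript cannot be told apart.

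Libraries held 19091085 to 36250314 reads assigned to genes. All 9 genes fixed as HEK293 markers passed the filter on low counts, and 3 of them differed between the groups. Their summed level was 2218 to 2435 CPM (reads scaled to a common library total) in co-culture, against 1861 to 1936 CPM in controls. DAO, the human D-amino acid oxidase gene, had no read in any library. This cannot show that partner cells were absent, since their DAAO need not be the human gene and they are HEK293 too. CD3E of T cells and UMOD of kidney tubule also had no read, and endothelial and liver markers were at or below 0.111 CPM on average. Other markers of these and further cell types were present: LRP2 of kidney tubule at a mean of 61.9 CPM, COL1A1 of fibroblasts at 37.96 CPM and CD68 of macrophages at 9.78 CPM. From the same lists, COL3A1 and DCN of fibroblasts were at 4.29 and 0.135 CPM. PTPRC and HBA1 of blood were at 0.0611 and 0.0579 CPM, and AQP2 of kidney tubule at 0.00869 CPM. On average COL1A1 was higher in co-culture, at 41.6 against 34.3 CPM in controls, and COL3A1 lower, at 2.90 against 5.69 CPM. The 3 fibroblast markers summed to 41.4 to 47.6 CPM in co-culture and 34.5 to 49.9 CPM in controls, the 3 of kidney tubule to 57.0 to 58.8 and 62.0 to 70.4 CPM, and the 4 of blood to 10.4 to 11.4 and 7.71 to 10.6 CPM. None of the 4 tested among them passed the threshold, and their part in the results was not tested. Co-culture libraries 2 and 3 stood apart from the other 4 in their share of reads on the unexpected strand, with medians of 0.124% and 0.211% against 1.57% to 1.75%. Control 1 differed from controls 2 and 3 in several of the genes below.

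The shared chemistry of these enzymes shows in their coding sequence. A glycine-rich loop near the start of the kinase fold wraps around the phosphates of the nucleotide. The coding sequences of AK1, AK3, AK4 and CMPK1, in GENCODE release 29 (GRCh38), were compared in frame over windows of 45 bases. The window with the most bases identical in all 4 had 24 of them, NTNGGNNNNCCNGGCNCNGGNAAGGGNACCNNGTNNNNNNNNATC, and lies over this loop. Every in-frame window in the longest coding sequence of 19668 genes was then scored, on the coding strand, by how many of these 24 bases it holds. The sequences are shown because AK5 has such a window at 2 places. Each is printed 5′ to 3′, with those of the 24 bases that it holds in capitals.
AK1, codon 30: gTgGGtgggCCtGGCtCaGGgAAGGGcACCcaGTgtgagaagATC
AK3, codon 13: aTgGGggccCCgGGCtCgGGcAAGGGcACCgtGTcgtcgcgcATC
AK4, codon 11: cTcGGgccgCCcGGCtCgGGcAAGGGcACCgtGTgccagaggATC
CMPK1, codon 41: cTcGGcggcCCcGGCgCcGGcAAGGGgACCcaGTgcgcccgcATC
AK5, codon 138: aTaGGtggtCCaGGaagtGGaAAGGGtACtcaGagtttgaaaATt
AK5, codon 382: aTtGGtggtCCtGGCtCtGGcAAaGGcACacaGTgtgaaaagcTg

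The window of AK5 at codon 382 held 20 of the 24 bases and the one at codon 138 held 19, where the median gene held 13 in its best window. A best window with 19 or more was found in 14 genes (0.0712%), 5 of them members, and the 4 compared members hold all 24 by construction. AK5 was the 1 gene with 19 or more in a pair of windows that do not overlap, a limit set by AK5's own lower window. Its windows were identical at 29 of 45 bases. Its coding sequence of 1686 bases is longer than those of AK1, AK3, AK4 and CMPK1, which ran from 630 to 684 bases, and it holds a pair of kinase domains. The best window of AK8 held 16 of the bases and that of AK7 12, which 3.89% and 91.1% of genes reached, and says only that these letters are not in their coding sequences. The longest coding transcript of each member was compared with all transcripts of GENCODE release 29, which may differ from the annotation behind the counts. No window of 50 bases was shared between any pair of members, and AK5, AK7, AK8 and CMPK1 shared none with a transcript of any other gene. AK3 shared 3.54% of its windows with 320 other genes, led by YIPF6. In AK4, 7.53% of windows were shared with other genes, led by its processed pseudogene AK4P1, and in AK1 33.8% were, mostly with an overlapping gene model that is not a row of the files. Reads of AK4 from the shared part could have been dropped as multimapping, so its level may be undercounted.

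**Figure D1:**
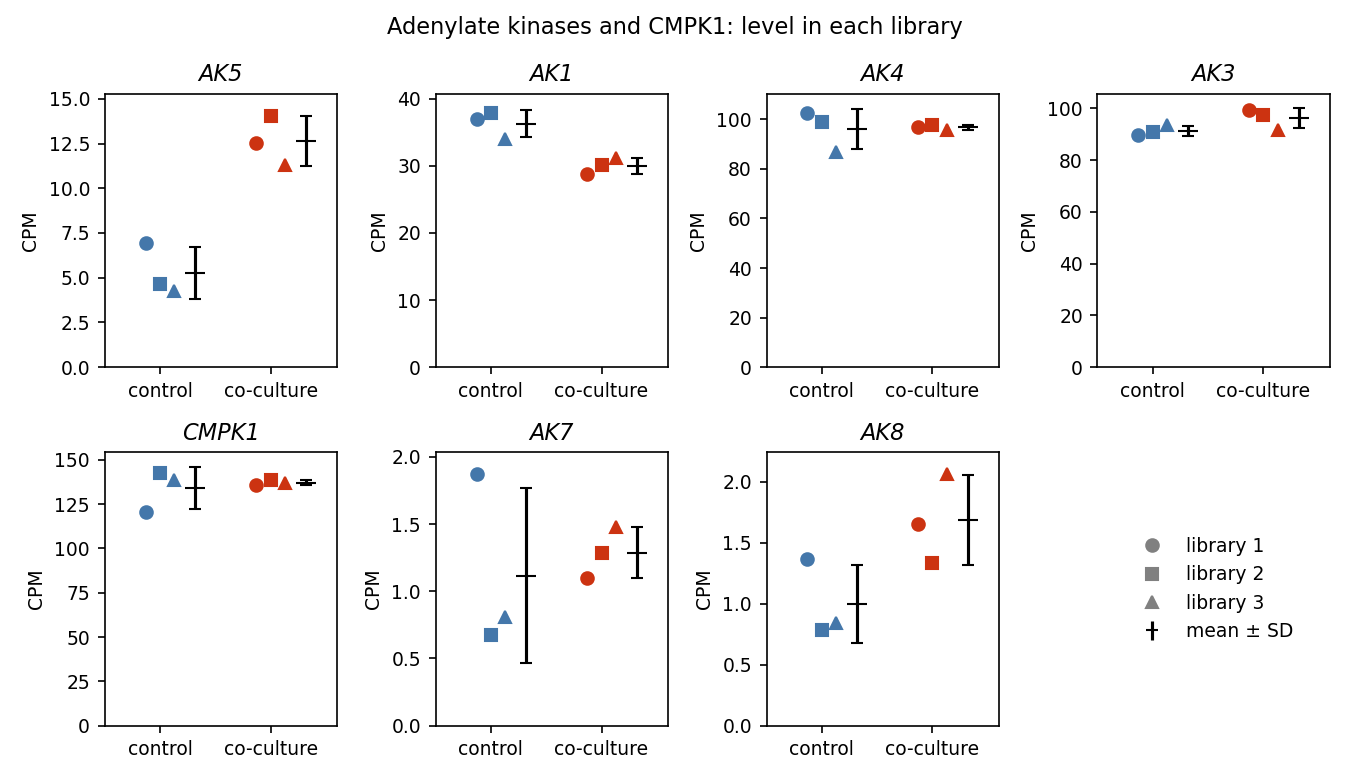
Level of each gene in every library in CPM, with linear axes that start at 0; symbols mark the library number, and the black bar is the mean ± SD of the 3 libraries of a group. The groups separate in AK5, at 11.3 CPM or more against 6.92 CPM or less, and in AK1, in the opposite direction, and overlap in the other 5 genes.

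AK5, an adenylate kinase best known from brain, was higher in every co-culture library. Its level was 12.6, 14.1 and 11.3 CPM in co-culture libraries 1, 2 and 3, from 251, 296 and 404 reads. It was 6.92, 4.64 and 4.26 CPM in controls 1, 2 and 3, from 137, 89 and 111 reads. The lowest co-culture library thus lay above the highest control. The means were 12.6 ± 1.39 and 5.27 ± 1.44 CPM (SD, n = 3 each), and the fitted difference was 2.40-fold, a log2 fold change (log2FC, co-culture against control) of 1.26 (SE 0.18). This contrast chose AK5, so the difference is given as a description and not tested. It ranked as the fourth largest increase among the 361 genes that were past the threshold, had a mean of at least 5 CPM and did not overlap between groups. CALCB, just inside the limit of 5, had a log2FC of 1.12, and EMP1, just outside it, had 1.09.

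The controls spread more in AK5 than counting alone would give. Their coefficient of variation was 27.3%, where counting noise gives 9.44%, against 11.0% in co-culture, where it gives 5.62%. Control 1 was the high control, and without it the log2FC was 1.50. Co-culture library 1, the only co-culture library with a median unexpected-strand share like that of the controls, stood at 12.6 CPM, and set against the 3 controls alone it gave 1.26. Leaving out each library in turn gave 1.12 to 1.50. The call that chose AK5 was lost when co-culture library 2 (1.18) or control 2 (1.19) was left out. It was also lost with a term for the class of unexpected-strand reads (1.26), which again sets co-culture library 1 against the 3 controls. Of all AK5 reads on either strand, 0.770% lay on the unexpected strand.

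The increase of AK5 was not seen in the genes beside it on chromosome 1. In RefSeq's gene order (GRCh38.p14), the nearest rows on each side are PIGK and ST6GALNAC5, and ZZZ3 and USP33. These 4 had log2FCs of 0.10, -0.45, -0.19 and 0.06, edgeR gave adjusted p-values from 0.264 to 0.644, and the groups overlapped in all 4. PIGK, a subunit of the complex that attaches glycolipid anchors to proteins, stood at 98.0 ± 2.08 against 91.2 ± 8.04 CPM in controls (SD, n = 3 each).

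The genes whose levels followed AK5 most closely were found among 11642 genes with a mean of at least 5 CPM. Over the 6 libraries, Pearson's r of log2(CPM + 0.5) with AK5 was 0.999 for ANKRD27, 0.997 for ZFP36 and 0.994 for ZC3H12A. ZFP36 and ZC3H12A code for proteins that bind and destabilise messenger RNAs of inflammatory genes. ZFP36 stood at 12.9 ± 0.656 against 8.24 ± 1.30 CPM in controls (SD, n = 3 each). ANKRD27, with the closest pattern, spanned a far smaller range, at 86.4 ± 0.870 against 79.7 ± 1.67 CPM. All of these values share the libraries and the difference between groups, and 496 genes had an r above 0.9, so the order is a description. By deviations from the group means, which leave that difference out, the closest were TBC1D8, ST3GAL1 and IRX3, at 0.998, 0.998 and 0.995. By this measure 487 genes had an r above 0.9, so this order too is only a description.

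AK1 differed the other way. AK1 is the cytosolic enzyme of muscle, red cells and brain, and it has a single kinase domain. Its level was 28.7, 30.1 and 31.1 CPM in co-culture libraries 1, 2 and 3 and 37.0, 37.9 and 34.0 CPM in controls 1, 2 and 3. The highest co-culture library lay below the lowest control. The means were 29.97 ± 1.21 and 36.3 ± 2.06 CPM (SD, n = 3 each), a log2FC of -0.27 (SE 0.07, 95% interval -0.43 to -0.11). The adjusted p in edgeR's quasi-likelihood test was 0.0589, so AK1 did not pass the threshold of 0.05. Over all 14582 genes tested, 4.83% passed, 29.3% showed no overlap between the groups and 15% were lower without overlap, so AK1's separation is a common one here.

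The call on AK1 turned on the scaling and on single libraries. With libraries scaled by total counts it passed (log2FC -0.31, edgeR adjusted p 0.0412), where 6.05% of all genes did. Without control 1 it also passed (-0.26, edgeR adjusted p 0.0214), in a fit that called 20.8% of all genes, as it did without control 3 (-0.32, edgeR adjusted p 0.0415), where 5% were called. Its adjusted p over all other settings ran from 0.0214 to 0.480. The log2FC was below 0 in every one, from -0.34 to -0.24.

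**Figure D2:**
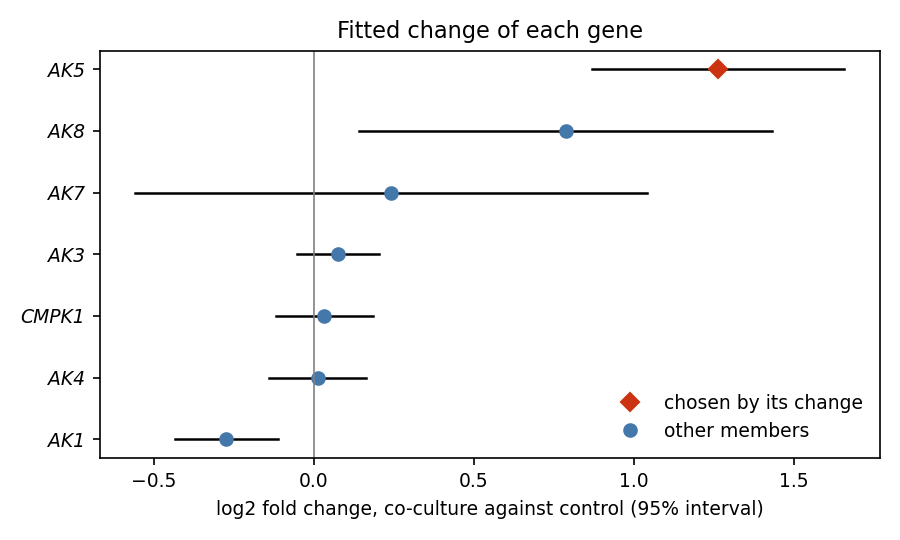
Fitted log2FC of each gene, co-culture against control, with its 95% interval; the diamond marks AK5, which was chosen by this change. The interval of AK1 lies below 0 and those of AK3, AK4, CMPK1 and AK7 span it.

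The mitochondrial matrix enzymes did not pass the threshold. AK3 uses GTP, which is made in the matrix by the citric acid cycle, to phosphorylate AMP. It stood at 99.5, 97.4 and 91.8 CPM in co-culture libraries 1, 2 and 3 and at 89.7, 90.7 and 93.4 CPM in controls 1, 2 and 3. The groups overlapped, and the log2FC was 0.07 (SE 0.06, 95% interval -0.05 to 0.20, edgeR adjusted p 0.476). With co-culture libraries 2 and 3 left out it was 0.13. AK4, which is induced by hypoxia-inducible factor in many cells, stood at 96.9, 97.7 and 95.7 CPM in co-culture, and the controls at 102, 98.9 and 86.8 CPM. Its log2FC was 0.01 (SE 0.07, 95% interval -0.14 to 0.16, edgeR adjusted p 0.937), and its sign turned to -0.02 with total counts and to -0.06 without control 3. The intervals of both genes reach no further than 0.20 on the log2 scale above 0.

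CMPK1, which supplies UDP and CDP for RNA and lipid synthesis, stood at 136, 139 and 137 CPM in co-culture libraries 1, 2 and 3, a coefficient of variation of 1.08%, below the 1.69% of counting noise alone. In the controls it stood at 121, 143 and 139 CPM, with control 1 the low one. The groups overlapped, at 137 ± 1.49 and 134 ± 11.8 CPM (SD, n = 3 each). The log2FC was 0.03 (SE 0.07, 95% interval -0.12 to 0.18, edgeR adjusted p 0.815), and -0.04 without control 1.

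The cilium-associated members had few reads. AK8 was covered by 33, 28 and 74 reads in co-culture libraries 1, 2 and 3 and by 27, 15 and 22 reads in controls 1, 2 and 3. That gave 1.65, 1.33 and 2.07 CPM against 1.36, 0.782 and 0.844 CPM. Control 1 lay just above co-culture library 2, so the groups overlapped. The log2FC was 0.79 (SE 0.29, 95% interval 0.14 to 1.43, edgeR adjusted p 0.139). Without control 1 AK8 passed, at 1.08 (edgeR adjusted p 0.0150), in a fit that called 20.8% of all genes. With a term for the class of unexpected-strand reads its edgeR adjusted p was 0.529. The unexpected strand held 11.6% of the AK8 reads, from 0.681% to 2.78% in the other members, and with strand disregarded the log2FC was 0.78.

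AK7 was covered by 22, 27 and 53 reads in co-culture libraries 1, 2 and 3 and by 37, 13 and 21 reads in controls 1, 2 and 3. Its level was 1.10, 1.28 and 1.48 CPM against 1.87, 0.678 and 0.805 CPM, with control 1 the highest of all 6 libraries. The log2FC was 0.24 (SE 0.36, 95% interval -0.56 to 1.04, edgeR adjusted p 0.729). This interval holds both a fall and a rise. The controls had a coefficient of variation of 58.5%, where counting noise gives 20.6%. Without control 1 it was 0.81 (edgeR adjusted p 0.0671). With a term for the class of unexpected-strand reads it was -0.01.

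Other genes of motile cilia also had few reads. Of 8 such genes, 3 had enough reads to be tested and 0 passed in edgeR, DESeq2 or limma-voom, with 2 at an unadjusted p under 0.05 in edgeR, against 4.83% and 23.2% of all genes tested. Their summed level was 4.83 to 5.50 CPM in co-culture and 4.54 to 4.72 CPM in the controls. CFAP45, at a mean of 2.02 CPM, and DNAH5, at 1.14 CPM, were its largest parts. Genes within it went opposite ways. DNAH5 was higher and FOXJ1 and PIFO were lower, each without overlap between the groups, as were 29.3% of all genes tested. FOXJ1, the transcription factor that switches on motile ciliogenesis, stood at 0.0986 ± 0.0792 and 0.243 ± 0.0310 CPM (SD, n = 3 each), close to the 0.0838 to 0.156 CPM that a count of 3 reads is worth. DNAH5, an outer-arm dynein heavy chain, had a log2FC of 0.72 (SE 0.28, edgeR adjusted p 0.156), and PIFO had -1.05 (SE 0.41, edgeR adjusted p 0.153).

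**Figure D3:**
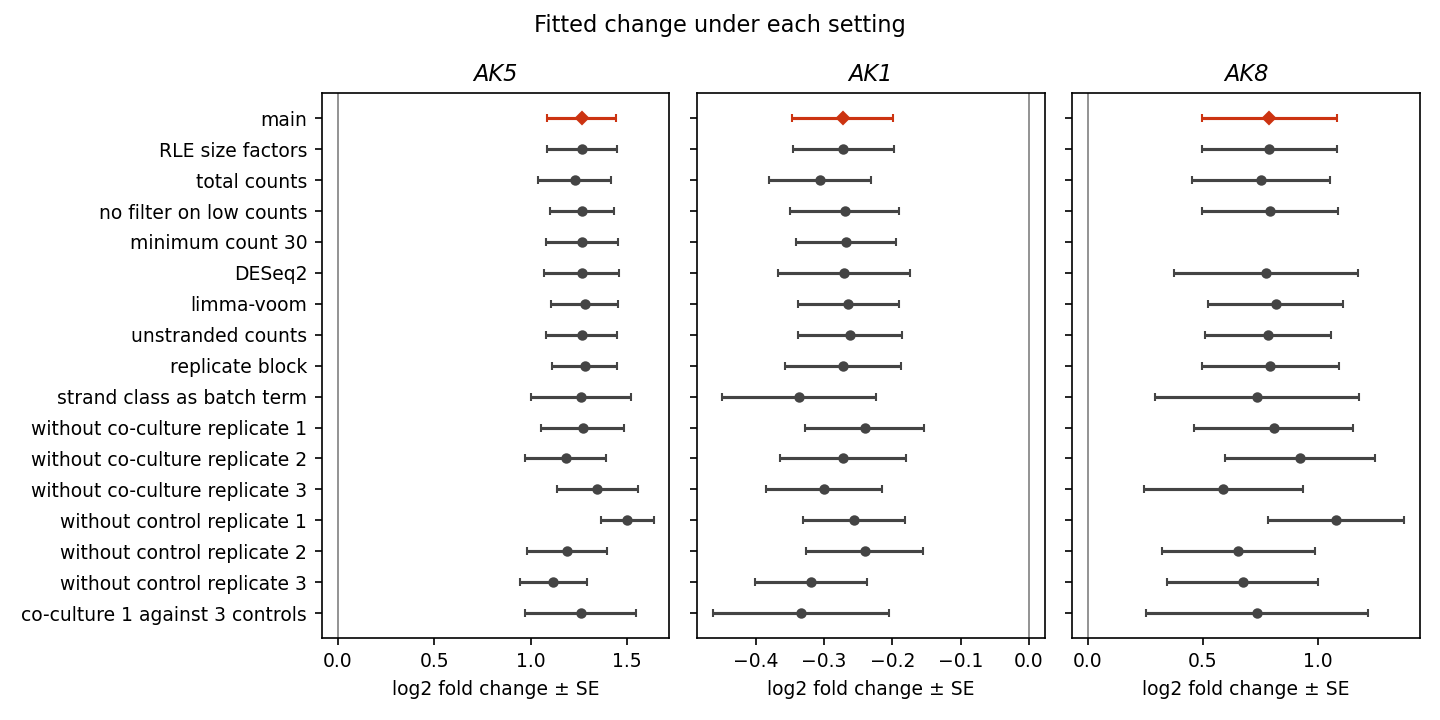
Log2FC ± SE of AK5, AK1 and AK8 in the fit as described and in each of the 16 other settings, which change the scaling, filter, test, strand, model terms or libraries; AK8 had too few reads to be tested at a minimum count of 30. The estimates keep their side of 0 throughout, and the fit without control 1 gives the highest value for AK5 and AK8.

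Of the 7 genes, 1 passed the threshold, AK5, whose call the choice fixed, and among the other 6 none did in edgeR, against 4.83% of all genes tested. At an unadjusted p under 0.05 there were 3 in all, AK5, AK1 and AK8, beside 23.2% of all genes tested. DESeq2 also called 1 of the 7 and limma-voom 1, and it was AK5 in both. Over all genes DESeq2 called 1032 of 13732 and limma-voom 675 of 14582. The other 6 had a median absolute log2FC of 0.16, beside 0.13 over all tested genes. All 7 passed the filter on low counts at a minimum count of 10.

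The levels of the 7 genes were ordered per length, as CPM per kb of the longest coding transcript in GENCODE release 29. CMPK1 led in both groups, with 45.7 ± 4.03 CPM per kb in the controls (SD, n = 3). AK3 followed at 22.7 ± 0.478, then AK1 at 16.0 ± 0.908 and AK4 at 13.7 ± 1.17 CPM per kb. AK5 stood at 1.34 ± 0.367 CPM per kb in the controls, well below these, then AK8 at 0.481 ± 0.154 and AK7 at 0.339 ± 0.198. In co-culture AK5 stood at 3.21 ± 0.354 CPM per kb, still the fifth of the 7. AK1 and AK4 did not separate in their order there, at 13.2 ± 0.536 and 13.8 ± 0.146 CPM per kb, and AK7 and AK8 overlapped in the controls. Which transcript is used matters for these values: per kb of coding sequence, AK4 came before AK3 in both groups, with 144 ± 12.3 and 134 ± 2.83 CPM per kb in the controls, though they overlapped and AK3 was the higher in control 3 and in co-culture library 1. The longest transcript of AK4, of 6998 bases, is mostly untranslated.

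**Figure D4:**
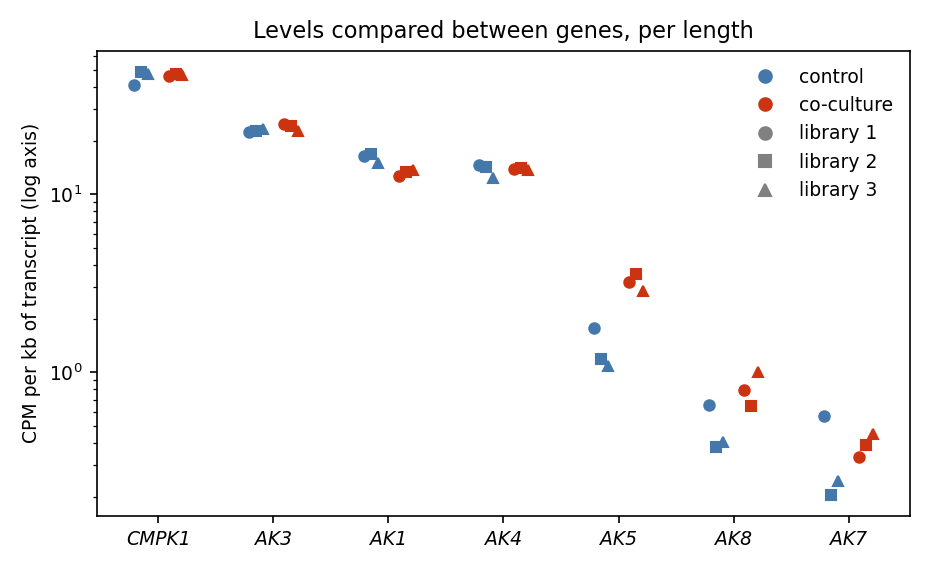
Level of each gene in every library in CPM per kb of its longest coding transcript, on a log axis; colour marks the group and symbol the library number. CMPK1, AK3, AK1 and AK4 lie above 12 CPM per kb in all libraries, and AK5 lies between them and the cilium-associated genes.

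Around the adenylate kinases, a companion list of 56 genes of nucleotide phosphate transfer was read from the same fit. Of these, 55 were rows of the files and 48 had enough reads to be tested. Just 2 passed the threshold, 1 higher and 1 lower, or 4.17% against 4.83% of all genes. Their median absolute log2FC was 0.12, beside 0.13 over all tested genes, and 18 of the 48 did not overlap between groups (37.5%, against 29.3% of all genes).

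Among other adenylate kinases, AK9, a large nuclear and cytosolic member listed under an older symbol, had a log2FC of 0.12 (SE 0.11, edgeR adjusted p 0.545), and ran from 0.07 without control 1 to 0.20 without co-culture library 3. AK6 was not analysed here.

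PRKAB2, the beta-2 scaffold subunit of AMP-activated protein kinase, rose. Its level was 59.9, 62.1 and 59.97 CPM in co-culture libraries 1, 2 and 3 and 50.1, 47.4 and 47.7 CPM in controls 1, 2 and 3. The groups did not overlap, and the log2FC was 0.33 (SE 0.06, edgeR adjusted p 0.0178). It was 0.31 to 0.35 without single libraries, but the call was lost without any of the 3 co-culture libraries or without control 2 (edgeR adjusted p 0.0506 to 0.128), and it held in 9 of the 16 other settings. It was also lost with the term for unexpected-strand class (0.31, edgeR adjusted p 0.267). The other 7 tested genes of this kinase and its upstream kinases did not pass, among them the catalytic subunits PRKAA1 and PRKAA2.

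CMPK2, a mitochondrial UMP-CMP kinase and interferon-inducible gene, fell. Its level was 5.25, 4.94 and 5.08 CPM in co-culture libraries 1, 2 and 3 and 9.95, 8.03 and 6.48 CPM in controls 1, 2 and 3. The groups did not overlap, the controls were spread, and control 1 was the highest. The log2FC was -0.67 (SE 0.17, edgeR adjusted p 0.0465), which lies close to the threshold. It was -0.50 without control 1 (edgeR adjusted p 0.0184), in a fit that called 20.8% of all genes. CMPK2 missed the threshold without any co-culture library or without control 2 (edgeR adjusted p 0.125 to 0.204). It also missed it in limma-voom (adjusted p 0.0573) and passed in 6 of the 16 other settings. CMPK1 and CMPK2 share their substrates and not their compartment, and whether their changes differ was not tested.

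In the remaining groups 0 of 37 tested genes passed in edgeR, with 8 at an unadjusted p under 0.05, against 4.83% and 23.2% of all genes tested. In these groups limma-voom called 0 and DESeq2 3, NME5 and UCK1 among them. Over all genes limma-voom called 675 of 14582 and DESeq2 1032 of 13732. In each group, the gene with the largest difference at 5 CPM or more is named. Of 7 nucleoside diphosphate kinases, which pass phosphate to GDP and other diphosphates, NME5 stood at 7.39 ± 1.29 against 4.84 ± 0.367 CPM (SD, n = 3 each), a log2FC of 0.60 (SE 0.16, edgeR adjusted p 0.0594). NME2 shares its strand and bases with the read-through gene NME1-NME2, a row of the files, so that its 0.837 CPM is uncertain. Of 8 nucleoside kinases, UCK1, which phosphorylates uridine and cytidine, had -0.25 (SE 0.07, edgeR adjusted p 0.0606). Both passed without control 1, NME5 at 0.65 (edgeR adjusted p 0.00808) and UCK1 at -0.25 (edgeR adjusted p 0.0101). That fit called 20.8% of all genes. The next group held 12 tested enzymes of AMP and related purine metabolism, not all of which act on AMP itself. Among them NT5E, the ecto-enzyme that turns AMP into adenosine, had -0.27 (SE 0.20, edgeR adjusted p 0.463). NT5E ran from -0.46 without control 3 to -0.11 without control 1, and was -0.04 with the term for unexpected-strand class.

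Among 4 tested genes of the creatine kinase system, a parallel route of phosphate transfer, CKB stood at 507 ± 24.1 against 552 ± 56.6 CPM (SD, n = 3 each), with -0.12 (SE 0.08, edgeR adjusted p 0.390), and ran from -0.19 without control 3 to -0.04 without control 1. CKMT1A and CKMT1B are near-identical copies whose reads cannot be divided with certainty. Among 5 tested mitochondrial nucleotide carriers, SLC25A25, a calcium-sensitive carrier of ATP-Mg, had -0.24 (SE 0.08, edgeR adjusted p 0.123). SLC25A6 had no read in any library. This ADP/ATP carrier gene lies in the region that the X and Y chromosomes share, where reads map to both copies, so this 0 says nothing of its expression.

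**Figure D5:**
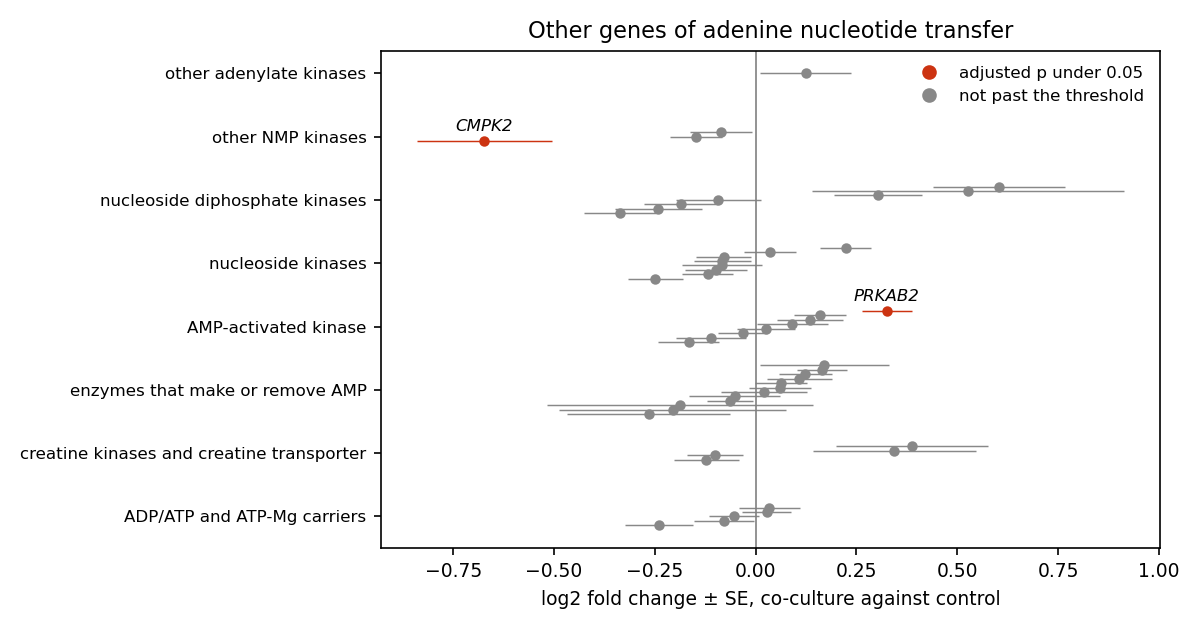
Log2FC ± SE of the 48 tested companion genes by group, co-culture against control; red marks an adjusted p under 0.05 in edgeR's test. PRKAB2 lies to the right of 0, CMPK2 to the left, and the other 46 did not pass.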

How the data were processed

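The authors deposited raw read counts per gene in STAR's layout: 4 summary lines and 3 count columns (unstranded, forward, reverse). The submitters' processing notes name STAR 2.53a, FastQC and hg18; the annotation is not given in the sources used here. Reverse-strand counts were used, since the labels' protocols name a stranded kit.

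The model, with no term beside group, was fitted to the counts with edgeR 4.0.16 under R 4.3.3: filterByExpr at a minimum count of 10, trimmed-mean scaling, the robust quasi-likelihood test and Benjamini-Hochberg adjustment over all 14582 tested genes at 0.05. CPM are scaled alike. SEs are the log2 fold change over the square root of F. DESeq2 1.42.0 and limma 3.58.1 were alternatives. On simulated data, 85.8% of 197 genes changed 2-fold were called at 14497 genes tested, and 8.65% of calls were unchanged genes. The simulation drew each gene independently, with no split of libraries by unexpected-strand reads and no control apart from the others. Its shares may not carry over to these data.

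Replicates in a group differed beyond sampling noise (chi-square per degree of freedom 4.56 to 17.7). Reads mapping to several places (6.48% to 8.42%) are not counted per gene. A count of 0 allows 3 reads, 0.0838 to 0.156 CPM, for counting error only.

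Members and lists were chosen with earlier results of these data known. Named were all members, companions past the threshold or, failing that, the largest difference of a group at 5 CPM or more, the 3 genes most like AK5, its 2 neighbours on each side, and the genes at the limit that chose it. AK9 was always named. 1 gene of the companion list is not reported here and was left out of the list's counts. The glycine-rich loop was taken from the members' own sequences, after earlier results were known.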

Additional observations from a re-analysis of the deposited data

How the results depend on the processing

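Over 16 other settings, AK5 and AK1 kept their direction in all and AK8 in the 15 in which it was tested. AK4 reversed with total counts (log2FC -0.0226), and without single libraries it ran from -0.0570 to 0.0617, with control 3 the one whose loss turned it. CMPK1 ran from -0.0374 to 0.0794, turned by the loss of control 1. AK7 reversed with strand class in the model (-0.00551) and with co-culture libraries 2 and 3 left out (-0.00752). These fits make the same comparison, since only co-culture library 1 shares the strand class of the controls. AK7 stood at 1.10 CPM in co-culture library 1 and at a mean of 1.12 CPM in the controls. The fit of 1 library against 3 was chosen after seeing the data and assumes that the lone library varies like the controls.

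The number of all genes past the threshold, 704 of 14582, was 882 of 14582 with total counts and 864 of 19187 with no filter. At a minimum count of 30 it was 712 of 13261, in DESeq2 1032 of 13732 and in limma-voom 675 of 14582. With unstranded counts it was 663 of 14859, with the replicate block 164 and with strand class in the model 29. Without single libraries it ran from 65 to 3069, the highest without control 1. The number of the 7 members, 1, was 2 with total counts and 0 with the strand class. It was 0 to 3 without single libraries, the highest without control 1. The number of companion genes, 2, was 4 with total counts, 4 with no filter, 1 at a minimum count of 30 and 5 in DESeq2. It was 1 in limma-voom, 1 with unstranded counts, 0 with the replicate block and 0 with the strand class. Without single libraries it ran from 0 to 9, the highest without control 1, where 20.8% of all genes were called. AK5's own call was lost with the strand class (log2FC 1.26) and without either co-culture library 2 (1.18) or control 2 (1.19). The fit of 1 library against 3, the same comparison as with the strand class, gave 1.26.

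The replicate numbers of the titles gave no sign of a pairing: deviations of same-numbered libraries correlated at -0.07, -0.19 and -0.18. Those of differently numbered libraries ran from -0.01 to 0.17, and whether the libraries were paired was not tested. With the block, 1 member was called. Total counts gave 310 higher and 572 lower genes against 388 and 316, and moved the median gene to -0.04. AK7 and AK8 had 13 to 74 reads a library. At that depth counting alone gives a coefficient of variation of 20.6% and 21.7% in the controls, where 58.5% and 32.1% were measured.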

Other observations

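Reads on the unexpected, forward strand of the members were not used in any comparison. CMPK1 had 113, 13 and 35 of them in co-culture libraries 1, 2 and 3 and 108, 120 and 162 in controls 1, 2 and 3. AK3 had 59, 6 and 10 in co-culture and 62, 53 and 69 in the controls. Both genes thus repeat the split of the libraries seen over all genes, with co-culture libraries 2 and 3 low.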
